A study of Rattus norvegicus with 12 samples.

Results

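The miR-99/miR-100 and miR-125 families were followed in cells and tissue of the rat medial entorhinal cortex through 5 assays of a TaqMan low density card. The assays were miR-99a, miR-99b, miR-100, miR-125a-5p and miR-125b-5p, chosen by name out of 375 miRNA assays on the card. All 5 were determined in each of the 12 samples and passed the filter on undetermined wells. The samples came from Long Evans rats. In 5 samples stellate neurons had been sorted as cells positive for DiO, a fluorescent dye injected into the dentate gyrus on postnatal day 2 and carried back along the axons of the layer II cells that project there, and in 5 samples the DiO negative, non-stellate cells of the same cortex had been sorted. Both kinds were taken on postnatal day 4 or 5, and 2 further samples were dissected medial entorhinal cortex of day 23. The tissue was not dissociated or sorted, and its RNA was extracted with another kit than that of the sorted cells. Age, sorting and kit therefore cannot be told apart in any comparison with tissue. DiO marks only cells that took up dye within those days, so the DiO negative cells are a mixture of all other cells and may hold unlabelled stellate neurons. One description field names non-stellate samples 3 and 5 as labelled, against their titles, sources and fluorescence, and results are therefore also given without them.

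MicroRNAs bind messenger RNAs mainly through the seed, bases 2 to 8 from the 5′ end, so that miRNAs of one seed share most of their predicted targets. The miR-125 miRNAs are the vertebrate relatives of worm lin-4, a regulator of developmental timing, and in many animals miR-100, let-7 and miR-125 lie together in one cluster. The miR-99/miR-100 miRNAs are known to repress the growth kinase mTOR, and miR-125b is known from work on neuronal differentiation and dendritic spines.

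The mature sequences show what the members share and what sets them apart, with bases 2 to 8 in capitals (RefSeq, GRCr8). Of the 5 members, 4 matched an entry of the sequence table, and miR-99a did not.
miR-99b: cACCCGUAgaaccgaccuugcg
miR-100: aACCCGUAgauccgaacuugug
miR-125a-5p: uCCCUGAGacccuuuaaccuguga
miR-125b-5p: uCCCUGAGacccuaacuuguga
miR-351: uCCCUGAGgagcccuuugagccuga

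MiR-99b and miR-100 carry the same seed and are identical at 18 of 22 positions, counted from the 5′ end. MiR-125a-5p and miR-125b-5p are identical over their first 13 bases. MiR-351 carries the miR-125 seed too, departs from both miR-125 miRNAs after base 8, and was the only other miRNA of the card found with either seed among those with an entry. The card reads it with a mouse and a rat assay.

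The genes lie in 3 clusters that each hold a let-7 gene, and the clusters mix the seeds. On chromosome 1, Mir99b, Mirlet7e and Mir125a lie within 696 bases of the plus strand, with mature miR-99b at chr1:67350070-67350091 and mature miR-125a-5p at chr1:67350689-67350712. On chromosome 8, Mir100, Mirlet7a-2 and Mir125b1 span 51828 bases of the plus strand, with mature miR-100 at chr8:50798307-50798328. On chromosome 11, Mir99a (hairpin chr11:29687392-29687472) lies beside Mirlet7c1, and mature miR-125b-5p of Mir125b2 lies at chr11:29732588-29732609. The let-7 sequences are shown because the members are set against them below. They share their own seed, and let-7a is identical to let-7c and to let-7e at 21 of 22 positions.
let-7e: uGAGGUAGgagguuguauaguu
let-7c: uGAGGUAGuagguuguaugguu
let-7a: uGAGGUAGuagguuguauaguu

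Abundance was read as Ct, the PCR cycle at which a well crosses threshold, which is a log2 scale that falls as abundance rises. The deposited values subtract from each Ct the average of that sample's 4 U6 wells, which gives what is called U6-scaled Ct here, and a log2 difference is minus the difference in U6-scaled Ct. Because U6 is 1 RNA, each comparison was repeated after subtracting the sample's median Ct over 176 assays, those with a determined Ct in every sorted sample (median centring). Stellate samples had 234 to 260 determined miRNA assays, non-stellate samples 203 to 241, and the tissue samples 292 and 302. U6 Ct was 16.5 to 19.0 in stellate, 17.7 to 20.2 in non-stellate and 15.6 to 16.0 in tissue samples. The 5 neuronal marker miRNAs (miR-124, miR-128a, miR-138, miR-129-3p and miR-218) were determined in every sample. The oligodendrocyte markers miR-219 and miR-338-3p were undetermined in 7 of 10 stellate and 8 of 10 non-stellate wells, and the blood markers miR-142-5p and miR-451 in every sorted sample.

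The levels of the 5 miRNAs in the sorted cells overlapped between stellate and non-stellate samples, and all 5 were higher in tissue by U6 scaling. MiR-99a had a U6-scaled Ct of 9.34, 6.08, 7.40, 7.41 and 7.69 in stellate samples 1 to 5, of 7.24, 6.98, 8.33, 6.28 and 6.21 in non-stellate samples 1 to 5, and of 3.54 and 4.22 in tissue. Stellate sample 1 had the least miR-99a and stellate sample 2 the most, with every non-stellate sample between them. MiR-100, its seed partner, stood at 9.63, 6.37, 7.36, 7.51 and 7.83 in stellate, at 7.39, 7.39, 8.21, 6.49 and 6.37 in non-stellate and at 4.03 and 4.85 in tissue samples. The order of the stellate samples was that of miR-99a. MiR-99b, of the same seed but another cluster, read 8.56, 6.67, 7.83, 7.40 and 8.01 in stellate, 7.93, 8.26, 9.11, 7.25 and 7.75 in non-stellate and 4.76 and 4.95 in tissue samples. Its stellate samples spread less than those of miR-99a, with an SD of 0.71 against 1.16 (n = 5 each).

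Of the miR-125 miRNAs, miR-125b-5p had a U6-scaled Ct of 7.65, 4.47, 5.53, 5.57 and 5.76 in stellate, of 5.89, 5.45, 6.99, 4.46 and 4.94 in non-stellate and of 2.35 and 2.84 in tissue samples. Stellate sample 1 was again the lowest of its group. MiR-125a-5p read 9.99, 9.68, 10.39, 9.83 and 10.93 in stellate, 10.44, 11.39, 12.20, 10.11 and 10.91 in non-stellate and 6.36 and 6.82 in tissue samples. For miR-125a-5p stellate sample 1 lay inside its group, and 3 of the 5 stellate samples were above every non-stellate sample.

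**Figure D1:**
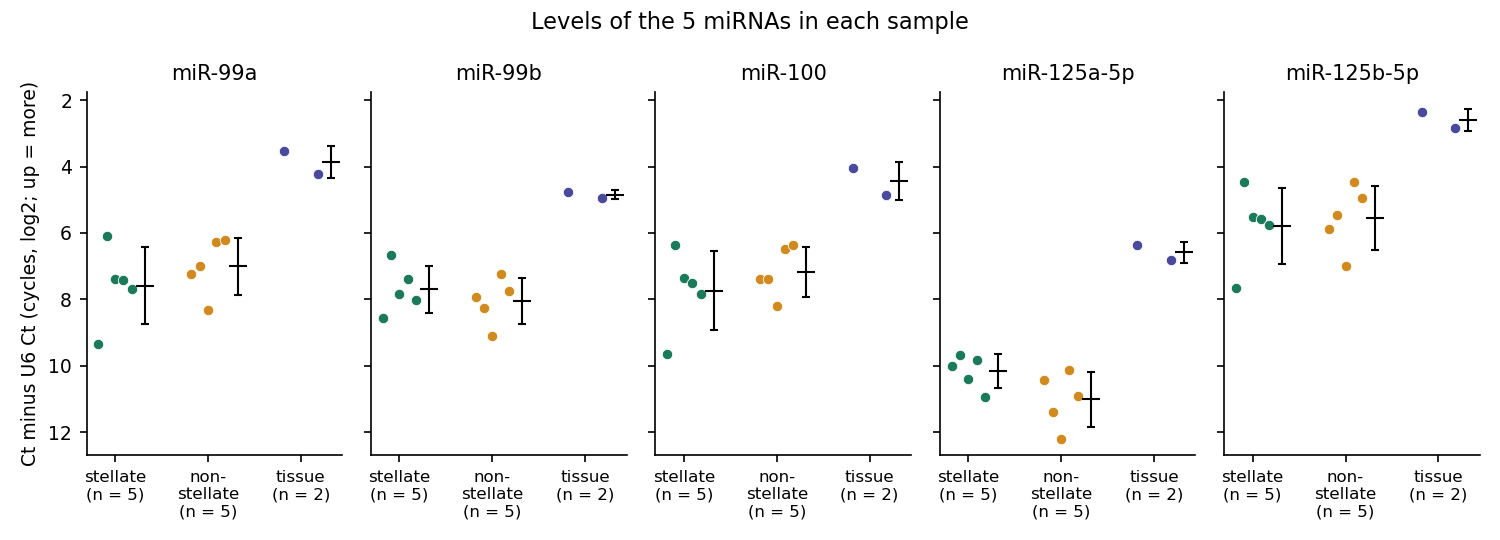
U6-scaled Ct (cycles, axis reversed so that more RNA is higher) of the 5 miRNAs in each sample; points are samples in the order of their replicate numbers, and bars are the mean and SD of a group. Tissue lies above every sorted sample in all 5 panels, and stellate and non-stellate samples overlap in each.

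Between stellate and non-stellate cells none of the 5 miRNAs passed the limma test, and none of the 222 tested assays did (0.0%), while 0 of the 5 and 16 of the 222 had an unadjusted p under 0.05 (7.21%). By sign on the U6 scale the values split by cluster rather than by seed, which is a description without a test. The log2 difference was -0.57 for miR-99a (SE 0.66, limma adjusted p = 0.777) and -0.57 for miR-100 (SE 0.65, adjusted p = 0.777), with the stellate sample higher in 2 of 5 replicate numbers for each. MiR-125b-5p differed by -0.25 (SE 0.68, adjusted p = 0.935). The miRNAs of the chromosome 1 cluster lay on the other side of 0, miR-99b at 0.36 (SE 0.53, adjusted p = 0.794) and miR-125a-5p at 0.85 (SE 0.53, adjusted p = 0.629). MiR-125a-5p was higher in the stellate sample of 4 of 5 numbers (exact two-sided permutation p = 0.0794, smallest possible 0.00794). These values rest on few samples. MiR-99a stood at -0.14 and miR-100 at -0.10 without stellate sample 1, and at -0.95 and -0.92 without stellate sample 2. MiR-99b stood at 0.10 without non-stellate sample 3 and at 0.58 without stellate sample 1, and miR-125b-5p at -0.61 and 0.21 when each of these was left out in turn. MiR-125a-5p ranged from 0.55 without non-stellate sample 3 to 1.07 without non-stellate sample 4. The median over all tested assays was 0.46, so that miR-99a, miR-100 and miR-125b-5p ranked 203, 202 and 183 of 222 from the top and miR-125a-5p ranked 70. MiR-99b, at 0.36, lay below that median and ranked 121. The signs of miR-99a, miR-100 and miR-125b-5p depend on the reference, as scaling to snoRNA202 gave 0.21, 0.21 and 0.54, and scaling to Y1 gave 0.06 for miR-125b-5p.

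After median centring miR-99a and miR-100 were lower in the stellate sample of all 5 replicate numbers. The log2 difference of miR-99a was -0.97 (95% interval -1.80 to -0.14, limma p = 0.0266, adjusted p = 0.343; exact permutation p = 0.0317), and that of miR-100 was -0.97 (-1.82 to -0.11, limma p = 0.0303, adjusted p = 0.343; exact permutation p = 0.0238). An unadjusted p under 0.05 was reached by 28 of 222 assays here (12.6%) and an adjusted one by none (0.0%), against 2 and 0 of the 5 miRNAs. Stellate and non-stellate samples overlapped for all 5, as they did for all but 4.05% of the assays. Leaving out any 1 sample moved miR-99a between -1.14 and -0.69 (limma p from 0.016 to 0.061) and miR-100 between -1.13 and -0.65 (limma p from 0.018 to 0.068). With the replicate number as a block both had an adjusted p of 0.110, and without non-stellate samples 3 and 5 they stood at -0.87 (adjusted p = 0.699) and -0.77 (adjusted p = 0.702). MiR-125b-5p moved the same way in all 5 numbers, by -0.64 (adjusted p = 0.449). MiR-99b stood at -0.03 (SE 0.23, adjusted p = 0.966), so its sign flipped with the scaling, and miR-125a-5p at 0.45 (SE 0.29, adjusted p = 0.458). Summed neuronal marker levels were -5.76 to -4.24 in stellate and -8.79 to -5.79 in non-stellate samples on the log2 U6 scale, which just separates the groups, and 4.75 to 6.71 and 3.54 to 5.00 after median centring, where they overlap. All 5 neuronal markers differed by more than 0 on both scales, with 0 of 5 called. So did all 4 vascular markers, and 2 of 3 tested blood and microglia markers by U6 scaling and 1 of 3 after median centring. Of the 222 tested assays, 163 lay above 0 by U6 scaling and 117 after median centring. The summed vascular markers miR-126-3p, miR-126-5p, miR-143 and miR-145 ranged from -10.21 to -5.96 and from -10.96 to -8.05 on the U6 scale, with 0 of 4 called, and the blood and microglia markers from -10.50 to -9.44 and from -11.43 to -9.98, with 0 of 3 tested called. After median centring both sums overlapped too, at 1.25 to 4.42 and 1.17 to 2.74 for the vascular and at 0.14 to 1.91 and -0.21 to 0.89 for the blood and microglia markers. The part of such cell makeup in the member differences was not tested, and in bulk samples fewer cells of a type and less RNA per cell cannot be told apart.

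**Figure D2:**
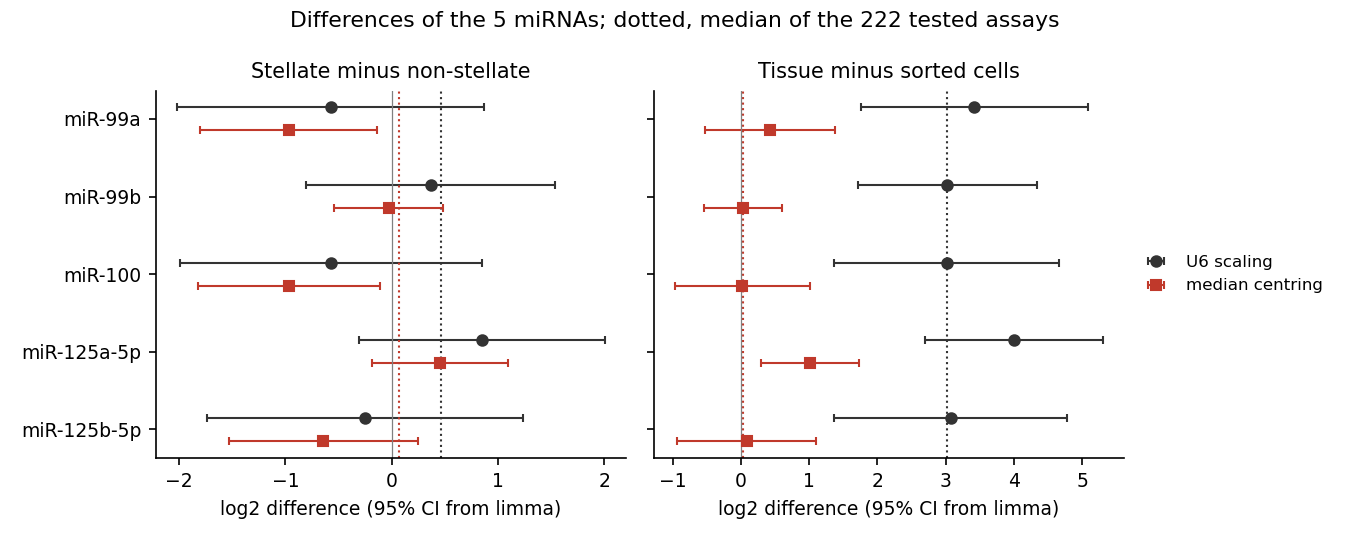
Log2 differences of the 5 miRNAs (x axis) with 95% limma intervals, stellate minus non-stellate on the left and tissue minus sorted on the right, by U6 scaling (black circles) and median centring (red squares); dotted lines give the median of the 222 tested assays. On the left miR-99a and miR-100 lie at -0.57 and -0.97, and on the right only miR-125a-5p stays clear of 0 after median centring, at 1.01.

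The difference in Ct between 2 wells of one card needs no reference RNA, and it was used to see which members moved together. The size of such a difference also holds the efficiency of both assays, so only its change between samples is read, and it is written as the log2 ratio of the first miRNA over the second. MiR-99a over miR-100 was nearly constant over the sorted cells. It ran from -0.04 to 0.30 in stellate and from -0.11 to 0.41 in non-stellate samples, and its SD over the 10 sorted samples was 0.15, a value that only 2 of the 15400 pairs formed by those 176 assays reached or went below. The table of sequences used here gives no miR-99a entry, and how far these assays read each other's miRNA was not tested. MiR-99a over miR-125b-5p, of another seed, had an SD of 0.24 (22 of 15400 pairs at or below), and miR-100 over miR-125b-5p one of 0.29 (57 of 15400). These 3 miRNAs of the chromosome 8 and 11 clusters thus kept nearly fixed ratios over samples whose U6-scaled Ct ranged over 3 cycles. Before scaling, the Ct of miR-99a ran from 24.19 to 26.45. The assay pairs were not matched for abundance. Counted from the lowest Ct, the median rank in sorted samples was 9.3% for miR-99a, 10.1% for miR-100 and 3.6% for miR-125b-5p. It was 35.2% for miR-125a-5p. The part of abundance in these SDs was not tested.

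Of the chromosome 1 cluster, miR-125a-5p did not follow miR-99a, miR-100 and miR-125b-5p, and miR-99b followed them less closely than they followed each other. MiR-99a over miR-125a-5p had an SD of 1.14, a value that 63.0% of assay pairs reached or went below, and miR-125a-5p over miR-125b-5p one of 1.06 (56.2%). Within the cluster, miR-99b over miR-125a-5p had an SD of 0.52 (7.97%). Across clusters, miR-99b over miR-125b-5p had a similar one of 0.57 (11.1%). MiR-99a over miR-99b had one of 0.66 (17.5%) and miR-99b over miR-100 one of 0.67 (19.0%). Stellate sample 1 set much of this spread. Without it, the SD of miR-99b over miR-125a-5p was 0.29 (122 of 15400 pairs at or below) and that of miR-99b over miR-125b-5p 0.37 (478 of 15400). That of miR-99a over miR-125a-5p was then 0.71 (5303 of 15400) and that of miR-99a over miR-100 0.16 (6 of 15400).

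Of the 10 ratios between members, 2 did not overlap between stellate and non-stellate samples, against 3.95% of the 15400 assay pairs. Both set miR-99b against its seed relatives. MiR-99a over miR-99b was -0.77, 0.58, 0.44, -0.01 and 0.32 in stellate samples 1 to 5 and 0.69, 1.28, 0.78, 0.96 and 1.54 in non-stellate samples 1 to 5, a log2 difference of -0.94, or 1.92-fold. All stellate samples lay below all non-stellate samples, and tissue, at 1.22 and 0.73, lay among the non-stellate values. MiR-99b over miR-100 was 1.07, -0.30, -0.48, 0.11 and -0.18 in stellate and -0.54, -0.87, -0.89, -0.76 and -1.39 in non-stellate samples, a difference of 0.94. Since miR-99a and miR-100 kept a fixed ratio, these are 1 observation seen through 2 assays. Both ratios stayed apart without non-stellate samples 3 and 5, where 6.14% of assay pairs did. The difference of miR-99a over miR-99b was then -0.87. They also stayed apart without stellate sample 1, where that difference was -0.72 and the share of assay pairs apart was not computed.

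The ratio of the miR-125 miRNAs moved the same way without separating the groups. MiR-125a-5p over miR-125b-5p was -2.34, -5.21, -4.85, -4.26 and -5.17 in stellate and -4.54, -5.94, -5.22, -5.66 and -5.97 in non-stellate samples. It was higher in the stellate sample of all 5 numbers, by 1.10 on average, and by 0.59 without stellate sample 1. MiR-100 over miR-125a-5p was lower in stellate cells in all 5 numbers, by a log2 difference of -1.42 and of -0.91 without stellate sample 1.

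**Figure D3:**
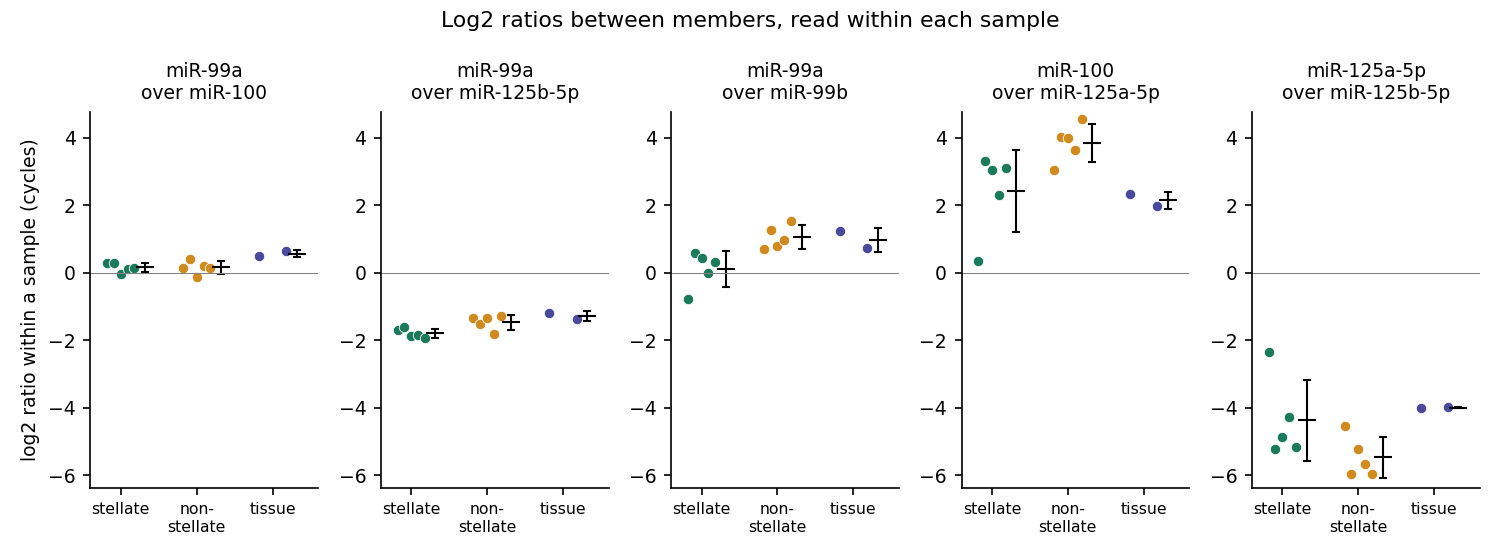
Log2 ratios between members within each sample (y axis, difference of 2 Ct values in cycles), by group; points are samples and bars are the mean and SD. MiR-99a over miR-100 and over miR-125b-5p is nearly flat across sorted samples, whereas miR-99a over miR-99b is -0.77 to 0.58 in stellate and 0.69 to 1.54 in non-stellate samples.

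Day 23 tissue held more of all 5 miRNAs relative to U6 than the sorted day 4 or 5 cells, and about as much more as the typical assay of the card did. The log2 difference was 3.42 for miR-99a (10.7-fold, SE 0.77, limma adjusted p = 0.00185), 3.02 for miR-99b (8.13-fold, SE 0.61, adjusted p = 0.000888) and 3.01 for miR-100 (8.07-fold, SE 0.76, adjusted p = 0.00397). It was 4.00 for miR-125a-5p (16.0-fold, SE 0.60, adjusted p = 0.000131) and 3.08 for miR-125b-5p (8.43-fold, SE 0.79, adjusted p = 0.00428). The limma fits of tissue, on either scale, took the 10 sorted samples as separate units, although they come from 5 biological replicates. The median over the 222 tested assays was 3.02, and the members ranked 74 to 112 from the top. Tissue was called higher for 62.2% of the assays and did not overlap the sorted samples for 68.9%, and the members' 5 of 5 in both counts is read against those shares. Without non-stellate samples 3 and 5 all 5 were called too, at 2.90 to 3.82. The direction depends on the reference: scaled to Y1, whose Ct was 19.8 and 20.4 in tissue and 24.4 to 27.2 in sorted cells, miR-99a, miR-99b, miR-100 and miR-125b-5p stood at -0.09, -0.48, -0.49 and -0.43, none of the 5 was called, and the median of all assays was -0.49. Without tissue sample 1, miR-100 (2.61, adjusted p = 0.068) and miR-125b-5p (2.83, adjusted p = 0.059) were no longer called.

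Relative to the median assay, 4 of the 5 miRNAs did not pass the test in tissue and 1 did. Median centring left a log2 difference of 0.43 for miR-99a (95% interval -0.52 to 1.38, adjusted p = 0.427), of 0.03 for miR-99b (-0.54 to 0.60, adjusted p = 0.928), of 0.02 for miR-100 (-0.96 to 1.01, adjusted p = 0.972) and of 0.09 for miR-125b-5p (-0.93 to 1.10, adjusted p = 0.889). MiR-125a-5p rose by 1.01, or 2.01-fold (SE 0.33, adjusted p = 0.0239), where 23.9% of all assays were called higher and 25.2% lower. Its median-centred Ct was -1.38 and -1.28 in tissue and ran from -1.36 to 0.20 in sorted cells, stellate sample 1 being the one that reached the tissue values. After median centring tissue overlapped the sorted samples for all 5 miRNAs, where 53.2% of assays did not overlap. The call was lost without either tissue sample (adjusted p = 0.158 without sample 1 and 0.113 without sample 2) and against stellate cells alone (0.78, adjusted p = 0.0918). After median centring 3 of the 5 neuronal, 2 of the 4 vascular and 1 of the 3 tested blood and microglia markers were called higher in tissue. None of them was called lower, and 23.9% of all assays were called higher. The neuronal marker sums of tissue, at 6.61 to 6.95 on the log2 scale, overlapped those of sorted cells, at 3.54 to 6.71. The vascular sums were 4.58 to 4.75 in tissue and 1.17 to 4.42 in sorted cells, and the blood and microglia sums, at 1.61 to 1.64, lay inside the sorted range of -0.21 to 1.91. On the U6 scale, where the median assay rose by 3.02, all 3 sums lay above the sorted samples, with -1.49 to -0.80 in tissue against -8.79 to -4.24 for the neuronal, -3.52 to -2.99 against -10.96 to -5.96 for the vascular and -6.46 to -6.14 against -11.43 to -9.44 for the blood and microglia markers. Both oligodendrocyte markers were determined in both tissue samples. The part of these cells in the member differences was not tested.

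Among the ratios between members, 1 of 10 set tissue apart from all sorted samples, against 56.9% of the 15400 assay pairs. It was miR-99a over miR-100, at 0.50 and 0.63 in tissue and -0.11 to 0.41 in sorted cells, a log2 difference of 0.41. The other 9 ratios overlapped when all samples were kept. Without stellate sample 1, 3 of 10 were apart (64.0% of assay pairs), as miR-99b over miR-125a-5p then differed by -1.12 and miR-125a-5p over miR-125b-5p by 1.21. Without non-stellate samples 3 and 5 it was 1 of 10 (60.0% of assay pairs).

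Of the let-7 miRNAs of the same clusters, let-7a rose in tissue relative to U6, and let-7c and let-7e did not pass the test. By U6 scaling let-7c read 3.87 and 4.36 in tissue and 2.68 to 4.79 in sorted cells, a log2 difference of -0.45 (SE 0.61, limma adjusted p = 0.543), let-7e differed by 1.07 (SE 0.68, adjusted p = 0.188), and let-7a rose by 2.51 (SE 0.76, adjusted p = 0.0112). Of these 3, 1 was called higher (62.2% of all assays) and 0 lower (1.35%). Relative to the median assay, 2 fell: let-7c by 3.44 (adjusted p = 8.4e-06) and let-7e by 1.92 (adjusted p = 0.00208), while let-7a stood at -0.48 (adjusted p = 0.335). Of the 6 other let-7 family assays (let-7b, let-7d, let-7f, let-7g, let-7i and miR-98), 4 were called higher by U6 scaling and none lower, and after median centring 3 were called lower and none higher. After median centring 25.2% of all assays were called lower and 23.9% higher.

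Within each sample, the ratios of members to let-7c and let-7e were higher in tissue than in sorted cells. These 4 ratios share 2 denominators, which fell relative to the median assay by 3.44 (let-7c) and 1.92 (let-7e). On that scale miR-99a, miR-125b-5p, miR-99b and miR-125a-5p stood at 0.43, 0.09, 0.03 and 1.01. MiR-99a over let-7c was 0.34 and 0.14 in tissue and -4.94 to -2.73 in sorted cells, a log2 difference of 3.87, or 14.7-fold (exact two-sided permutation of 2 against 10, p = 0.0303, the smallest possible). These permutations took the 10 sorted samples as separate units, although they come from 5 biological replicates. MiR-125b-5p over let-7c was 1.52 and 1.52 in tissue and -3.25 to -1.20 in sorted cells, 11.6-fold higher (exact permutation p = 0.0303). In both, the gap between tissue and the nearest sorted sample exceeded the spread within either group. On chromosome 1, miR-99b over let-7e was -1.01 and -0.89 in tissue and -4.01 to -2.05 in sorted cells (3.88-fold, exact permutation p = 0.0303). MiR-125a-5p over let-7e was -2.61 and -2.76 in tissue and -6.60 to -4.90 in sorted cells (7.63-fold, exact permutation p = 0.0303). Of the chromosome 8 pairs, miR-100 over let-7a differed by 0.50 (exact permutation p = 0.455) and miR-125b-5p over let-7a by 0.56 (exact permutation p = 0.273), and both overlapped. Tissue was thus apart in 4 of the 6 pairs compared, where 56.9% of all assay pairs were, so that count is near the card's share. The 4 stayed apart without non-stellate samples 3 and 5 (60.0% of assay pairs) and without stellate sample 1 (64.0%). MiR-125b-5p comes from 2 clusters, let-7a and let-7c have a further gene each on chromosomes 17 and 7, and the let-7 sequences differ by 1 or 2 bases, so a ratio of mature miRNAs is not a ratio of arms of one transcript.

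**Figure D4:**
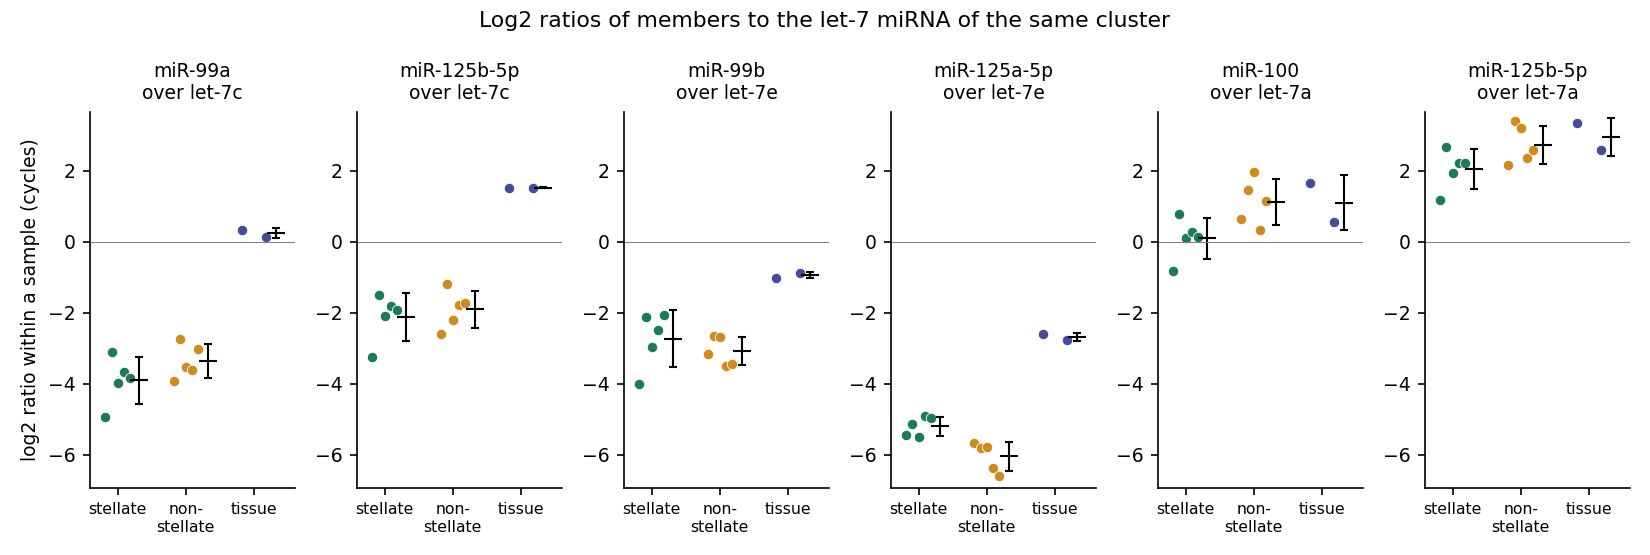
Log2 ratios of members to the let-7 miRNA of their cluster within each sample (y axis, difference of 2 Ct values in cycles), by group; points are samples and bars are the mean and SD. The 2 tissue samples lie above all 10 sorted samples for the let-7c and let-7e ratios and among them for the let-7a ratios.

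Among the sorted cells, 1 of the 6 ratios to let-7 separated stellate from non-stellate samples, against 3.95% of all assay pairs. MiR-125a-5p over let-7e was -5.44, -5.14, -5.51, -4.90 and -4.97 in stellate and -5.67, -5.80, -5.77, -6.36 and -6.60 in non-stellate samples, a log2 difference of 0.85, or 1.80-fold. The gap between the groups was small beside their spread. They stayed apart without non-stellate samples 3 and 5 (0.75), where 6.14% of assay pairs did. They also did without stellate sample 1 (0.91), where the share of assay pairs apart was not computed. MiR-99b over let-7e, from the same cluster, overlapped, at -4.01 to -2.05 in stellate and -3.49 to -2.67 in non-stellate samples.

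The opposite hairpin arms of the miR-125 members, which are usually degraded, did not pass the test in tissue by U6 scaling. By U6 scaling miR-125a-3p differed by 1.03 (SE 0.88, limma adjusted p = 0.332) and miR-125b-3p by 0.46 (SE 0.87, adjusted p = 0.662), and relative to the median assay they fell by 1.96 (adjusted p = 0.0323) and 2.53 (adjusted p = 0.00387). MiR-125a-5p over miR-125a-3p was 6.56 and 6.60 in tissue and 1.09 to 5.14 in sorted cells, 7.81-fold higher. MiR-125b-5p over miR-125b-3p was 10.02 and 10.20 in tissue and 6.64 to 7.98 in sorted cells, 6.11-fold higher. In both pairs tissue lay above every sorted sample, as it lay apart in 56.9% of assay pairs. The 3p arms read late in the sorted samples. MiR-125a-3p had a Ct of 30.97 to 34.55 there and of 28.87 and 29.01 in tissue. MiR-125b-3p had one of 30.12 to 33.16 there and of 28.33 and 28.63 in tissue. Whether such late single wells alter the ratios was not tested. Between stellate and non-stellate cells the 3p arms differed by -0.13 and -0.08 (adjusted p = 0.980 and 0.988).

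MiR-351, the third miRNA of the card with the miR-125 seed, lay in tissue within its range in sorted cells relative to U6. Its mouse assay read 11.40 and 11.58 in tissue and 9.84 to 12.41 in sorted cells, a difference of -0.49 (SE 0.61, adjusted p = 0.509), and the rat assay gave -0.28 (SE 0.65, adjusted p = 0.712). Relative to the median assay the assays fell by 3.48 (adjusted p = 0.00018) and 3.27 (adjusted p = 0.000157). Between stellate and non-stellate cells they differed by -0.48 and -0.44 (adjusted p = 0.777 and 0.783).

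**Figure D5:**
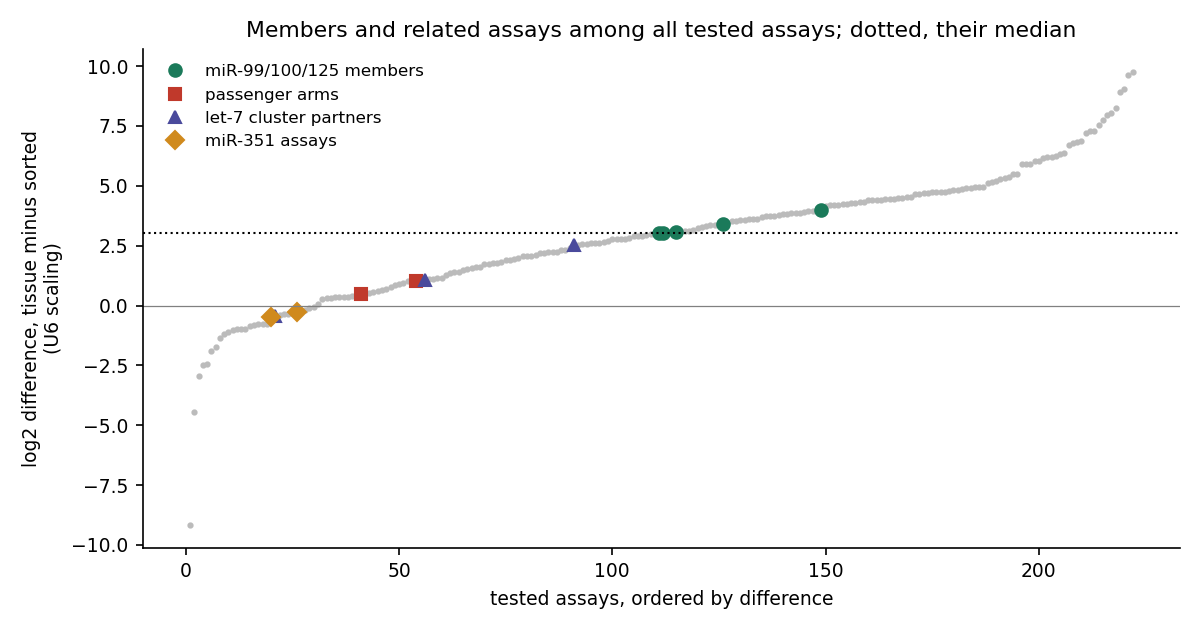
Log2 difference of tissue minus sorted cells by U6 scaling (y axis) for the 222 tested assays in order (x axis), with the members, the 3p arms, the let-7 cluster partners and the miR-351 assays marked and the median of all assays dotted. The members lie at 3.01 to 4.00, at or above the median of 3.02 or just below it, and the marked relatives at -0.49 to 2.51.

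The assays whose U6-scaled profile over the 10 sorted samples was most like the mean of miR-99a, miR-99b and miR-100 were miR-19b, miR-26a and miR-20a, with Pearson's r of 0.96, 0.95 and 0.94 over 171 candidates. For the mean of miR-125a-5p and miR-125b-5p they were miR-495, miR-7a and miR-26a, with r of 0.97, 0.97 and 0.96. The median r of all candidates was 0.64 and 0.74, and all profiles share the U6 values of the samples. After median centring the median r was 0.10 and 0.09, and the most like assays were miR-106b for the first family (0.96) and miR-130b for the second (0.82). The averaged members did not all run alike, so likeness to a mean is not likeness to each member. MiR-125a-5p and miR-125b-5p correlated at 0.32 by U6 scaling and at -0.77 after median centring. MiR-99b correlated with miR-99a and miR-100 at 0.76 and 0.73 by U6 scaling and at 0.51 and 0.49 after median centring. MiR-99a and miR-100 correlated at 0.99 and 0.98.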

How the data were processed

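MiRNAs were measured with the TaqMan Rodent MicroRNA A card in 5 stellate, 5 non-stellate and 2 tissue samples, grouped by title, source and fluorescence. The raw table deposited by the authors holds Ct on a log2 scale without normalization, with 40 in undetermined wells, and the normalized table deposited by the authors holds log2 values equal to Ct minus the mean of the 4 U6 wells. The authors' fold-change ratios, limma p-values and scores were not used. Wells were single, so the precision of 1 well is unknown and the number of determined assays stands in for depth. Assays with no more than 3 undetermined wells among the 10 sorted samples were tested (222) with limma 3.58.1 in R 4.3.3, two-sided, Benjamini-Hochberg adjusted over all 222, threshold 0.05. The code was run on simulated data whose planted differences were larger than those of the members between stellate and non-stellate cells. That run does not tell whether differences of the members' size would be found. Single values were compared by exact permutation (252 splits of 5 against 5, 66 of 2 against 10). P-values measure the spread between these samples.

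Replicate numbers were read as pairs because the series describes labelled and unlabelled cells of 5 biological replicates. Deviations from the group means correlated at 0.25, 0.08, 0.12, -0.02 and -0.05 in pairs 1 to 5.

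The members and lists were chosen with earlier results of these data known. Named are the 5 members, the assays sharing their seed, the let-7 miRNAs of their clusters, the other let-7 assays as a list, the 3p arms, the 3 assays most like each family, the reference RNAs and the marker lists. Sequences are from RefSeq (GRCr8), and the card's B companion was not analysed here.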

Additional observations from a re-analysis of the deposited data

How the results depend on the processing

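None of the 5 miRNAs was called between stellate and non-stellate cells under any of the planned settings, and leaving out each sample kept that count at 0. With the replicate block 0 of 222 assays were called, as without it, with 26 against 16 at an unadjusted p under 0.05, and with the block and median centring miR-99b stood at -0.0305. Signs turned as follows: miR-99b at -0.0305 with median centring, miR-99a at 0.21, miR-100 at 0.21 and miR-125b-5p at 0.54 with snoRNA202, and miR-125b-5p at 0.061 with Y1. Leaving out 1 sample moved miR-125b-5p from -0.61 to 0.21. After median centring, leave-outs (chosen after seeing the data) moved miR-99b from -0.14 to 0.062.

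For tissue against sorted cells, 5 members were called in the fit by U6, 1 with median centring, 1 with the global mean, 0 with Y1 and 3 to 5 with 1 sample left out, the 3 being without tissue sample 1. With Y1 miR-99a, miR-99b, miR-100 and miR-125b-5p turned to -0.086, -0.48, -0.49 and -0.43. All assays called higher numbered 138 by U6, 53 with median centring, 63 with the global mean and 17 with Y1. Those called lower numbered 3 by U6, 56 with median centring, 49 with the global mean, 51 with Y1, 5 with Ct capped at 35, 56 without an assay filter and 1 to 4 with 1 sample left out. After median centring, 0 members were called against stellate cells alone, and against non-stellate cells alone miR-99a, miR-100 and miR-125b-5p turned to -0.055, -0.46 and -0.24. Leaving out 1 sample then gave 0 to 1 members called and 24 to 57 assays called higher, and moved miR-99b from -0.051 to 0.12, miR-100 from -0.21 to 0.25 and miR-125b-5p from -0.066 to 0.18. With 1 tissue sample left, it was taken to vary like the other groups.

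The likeness of miR-19b to the miR-99/miR-100 mean fell to an r of 0.84 with median centring, and that of miR-495 to the miR-125 mean to 0.68. The cause of these changes was not tested. Ratios within a sample do not depend on the scaling. Single wells, 2 tissue samples and U6 as the only reference with several wells limit the precision.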
